A study of Mus musculus with 24 samples.

Results

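The genes of the cell cycle and of DNA replication followed here were 44 mouse genes, taken by symbol from the count tables, out of 24421 genes in all. They comprise 17 genes of S phase and the entry into it, and 27 genes of G2, mitosis and the mitotic checkpoint. The rule used symbols and known functions, with no threshold on a measured value. The study sequenced total RNA of CD8 T cells, sorted as positive for CD45, CD3 and CD8, from pancreas and blood of mice developing pancreatic cancer. KC mice gave 12 pancreas libraries, 3 at 4 weeks, 2 at 9 weeks, 3 at 13 weeks, 2 at 20 weeks and 2 at 30 weeks of age. They also gave 9 blood libraries, 2 at 4 weeks, 1 at 9 weeks, 3 at 13 weeks, 1 at 20 weeks and 2 at 30 weeks. Wild-type (WT) B6 mice gave 2 pancreas libraries, at 9 and 30 weeks, and 1 blood library at 30 weeks. The design text lists 4, 13, 20 and 30 weeks, and the sample labels add 9 weeks. The labels give the mice as KC, do not spell out their alleles, and name no treatment. Nothing in the labels says that libraries of one group came from separate animals, so the p-values below measure only the spread between these libraries, part of which may be technical.

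In a cell that leaves rest and nears S phase, E-type cyclins with their kinase CDK2 help to free the E2F factors that switch on replication genes. In S phase the MCM helicase opens the DNA, PCNA clamps the polymerases to it, and ribonucleotide reductase and thymidylate synthase supply the nucleotides. In G2 the cyclin A and B kinases, FOXM1 and B-MYB bring up the mitotic genes, the spindle checkpoint holds the chromosomes until all are attached, and the anaphase promoting complex then releases them. Resting naive and memory CD8 T cells keep most of these genes silent, and T cells that meet their antigen divide fast and express them together.

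The promoters of the 2 classes carry different short words, which is why a few are printed before the values. RefSeq promoter windows of GRCm38.p6, from 250 bases before to 50 after the annotated start, were matched by symbol for 36 of the 44 genes, 15 of S phase and 21 of mitosis. Each window was searched on both strands for 3 motifs. The E2F motif was any of TTTCCCGC, TTTGGCGC, TTTCGCGC and TTTGCCGC. The cell cycle homology region (CHR), a word common in promoters of mitotic genes, was TTTGAA or TTCGAA, and the CCAAT box was CCAAT. An E2F word was found in 6 of 15 S phase promoters (40%) and in 1 of 21 mitosis promoters (4.76%), against 2.32% of all 27025 promoters of the same length. A CHR word was found in 15 of 21 mitosis promoters (71.4%) and 3 of 15 S phase promoters (20%), against 19.4% of all. CCAAT was found in 16 of 21 (76.2%) and 10 of 15 (66.7%), against 37.9% of all. These are matches of letters, and no binding was measured. The windows below are a selection from the 36, and not every gene that matters to the results is among them. Cdk2 (1 E2F and 1 CCAAT match) and Ccne1 (no match of any motif) are not printed. Windows run 5′ to 3′ on the gene's strand, with every match in capitals, and overlapping matches run together.
Pcna (chr2:132253131-132253430, minus strand; 1 CCAAT match): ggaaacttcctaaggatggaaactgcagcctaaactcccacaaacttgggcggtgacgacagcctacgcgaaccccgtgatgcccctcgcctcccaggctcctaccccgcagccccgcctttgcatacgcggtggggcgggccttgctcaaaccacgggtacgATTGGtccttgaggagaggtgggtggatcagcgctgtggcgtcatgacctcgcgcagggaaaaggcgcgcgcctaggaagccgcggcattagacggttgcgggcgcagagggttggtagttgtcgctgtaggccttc
Mcm6 (chr1:128359656-128359955, minus strand; 3 E2F and 2 CCAAT matches): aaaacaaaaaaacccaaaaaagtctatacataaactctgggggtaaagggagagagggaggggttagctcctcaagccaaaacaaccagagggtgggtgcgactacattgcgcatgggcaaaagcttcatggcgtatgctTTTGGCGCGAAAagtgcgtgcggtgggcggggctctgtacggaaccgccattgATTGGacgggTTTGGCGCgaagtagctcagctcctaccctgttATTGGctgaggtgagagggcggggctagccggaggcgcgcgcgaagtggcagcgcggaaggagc
Mki67 (chr7:135716330-135716629, minus strand; 2 CHR and 3 CCAAT matches): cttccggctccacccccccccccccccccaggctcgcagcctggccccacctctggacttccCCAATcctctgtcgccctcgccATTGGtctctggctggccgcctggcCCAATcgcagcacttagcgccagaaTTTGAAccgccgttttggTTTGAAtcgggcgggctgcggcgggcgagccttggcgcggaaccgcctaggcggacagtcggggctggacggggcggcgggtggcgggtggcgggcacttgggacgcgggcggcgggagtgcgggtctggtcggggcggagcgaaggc
Top2a (chr11:99024140-99024439, minus strand; 4 CHR and 6 CCAAT matches): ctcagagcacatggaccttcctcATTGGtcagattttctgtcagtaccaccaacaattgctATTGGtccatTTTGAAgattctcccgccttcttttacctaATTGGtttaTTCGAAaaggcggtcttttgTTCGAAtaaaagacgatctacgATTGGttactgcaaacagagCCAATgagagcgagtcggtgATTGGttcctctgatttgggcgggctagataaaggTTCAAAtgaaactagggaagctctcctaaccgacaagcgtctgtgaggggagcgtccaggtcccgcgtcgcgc
Ube2c (chr2:164769679-164769978, plus strand; 1 CHR and 6 CCAAT matches): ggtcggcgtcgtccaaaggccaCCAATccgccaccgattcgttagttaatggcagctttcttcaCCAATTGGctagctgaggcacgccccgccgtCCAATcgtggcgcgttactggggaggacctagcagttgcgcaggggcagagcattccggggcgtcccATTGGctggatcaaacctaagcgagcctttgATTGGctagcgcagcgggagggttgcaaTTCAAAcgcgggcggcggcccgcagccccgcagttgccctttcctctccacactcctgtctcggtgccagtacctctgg
Trip13 (chr13:73937718-73938017, minus strand; 1 CHR match): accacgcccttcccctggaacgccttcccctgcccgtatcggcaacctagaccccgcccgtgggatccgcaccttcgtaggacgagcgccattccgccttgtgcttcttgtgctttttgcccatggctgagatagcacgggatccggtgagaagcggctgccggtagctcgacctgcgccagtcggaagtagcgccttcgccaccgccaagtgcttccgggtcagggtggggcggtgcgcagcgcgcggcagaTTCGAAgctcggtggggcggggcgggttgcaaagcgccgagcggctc

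The libraries held 6352070 to 16716169 counts in genes, which were 11.7% to 32.5% of the tallied reads, and levels below are CPM, a gene's counts scaled to that total in the usual way. At this depth 1 CPM is about 6 to 17 counts. The 8 T cell markers, Cd3e and Cd8a among them, summed to 6251 to 19023 CPM in every library. The libraries also fell into 2 sets of 12 that share traces of each other's private genes. Such genes, 95 in number, reached 100 CPM or more in a single library and stayed at 5% of it or less in every other. They had counts in 92.4% of the other libraries of the source's set and in 47.7% of those of the other set. The median level was 0.205% of the source within the set and 0 outside it. Set 1 held the KC pancreas libraries of 4 and 13 weeks, all WT libraries, both KC blood libraries of 4 weeks and, from 13 weeks, the blood library Sample_131B8. The other 12 made up set 2, and none of the 44 genes was among the 95. The sets were read from the data and run with age in the pancreas. Values with the set as a term of the fit, or within a set, are given below where such a fit could be made. Acinar enzyme genes, which mark pancreatic exocrine cells, summed to 1456 to 8208 CPM in the 4-week KC pancreas libraries, 0.103 to 483 in the later ones and 901 and 3378 in WT pancreas.

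All 44 genes had counts in at least 1 library, with totals over the 24 libraries from 81 (Tk1) to 55377 (Pcna). A library had between 17 and 38 of them at 1 CPM or more, with a median of 25. S phase genes were present more widely than mitosis genes: 10 of 17 reached 10 CPM in at least 12 libraries, against 4 of 27 mitosis genes (Mad2l1, Hmmr, Mki67 and Top2a). At most 3 libraries reached 10 CPM for 17 of 27 mitosis genes, against 4 of 17 S phase genes. Pcna was the one gene at 10 CPM or more in all 24 libraries. Mybl2, Plk1, Bub1b, Kif20a and Tk1 reached it in none. Per kilobase of exon, the median level over libraries was 88.4 CPM for Pcna, 18.6 for Mcm4, 7.59 for E2f1, 4.31 for Hmmr and 2.25 for Mki67, and 0.0104 for Cdk1. Ccnb1 and Cdk1, which encode the cyclin and the kinase that drive a cell into mitosis, reached 1 CPM in 2 and 5 libraries. For 5 genes (Pcna, Tyms, Ccnb1, Ccnb2 and Stmn1) the annotation names a pseudogene or related copy that could take or give reads. A further caution concerns 11 genes, Cdk2, Ube2c and Ccne2 among them, that overlap another coding gene, since the counting is not stated to use strand.

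**Figure D1:**
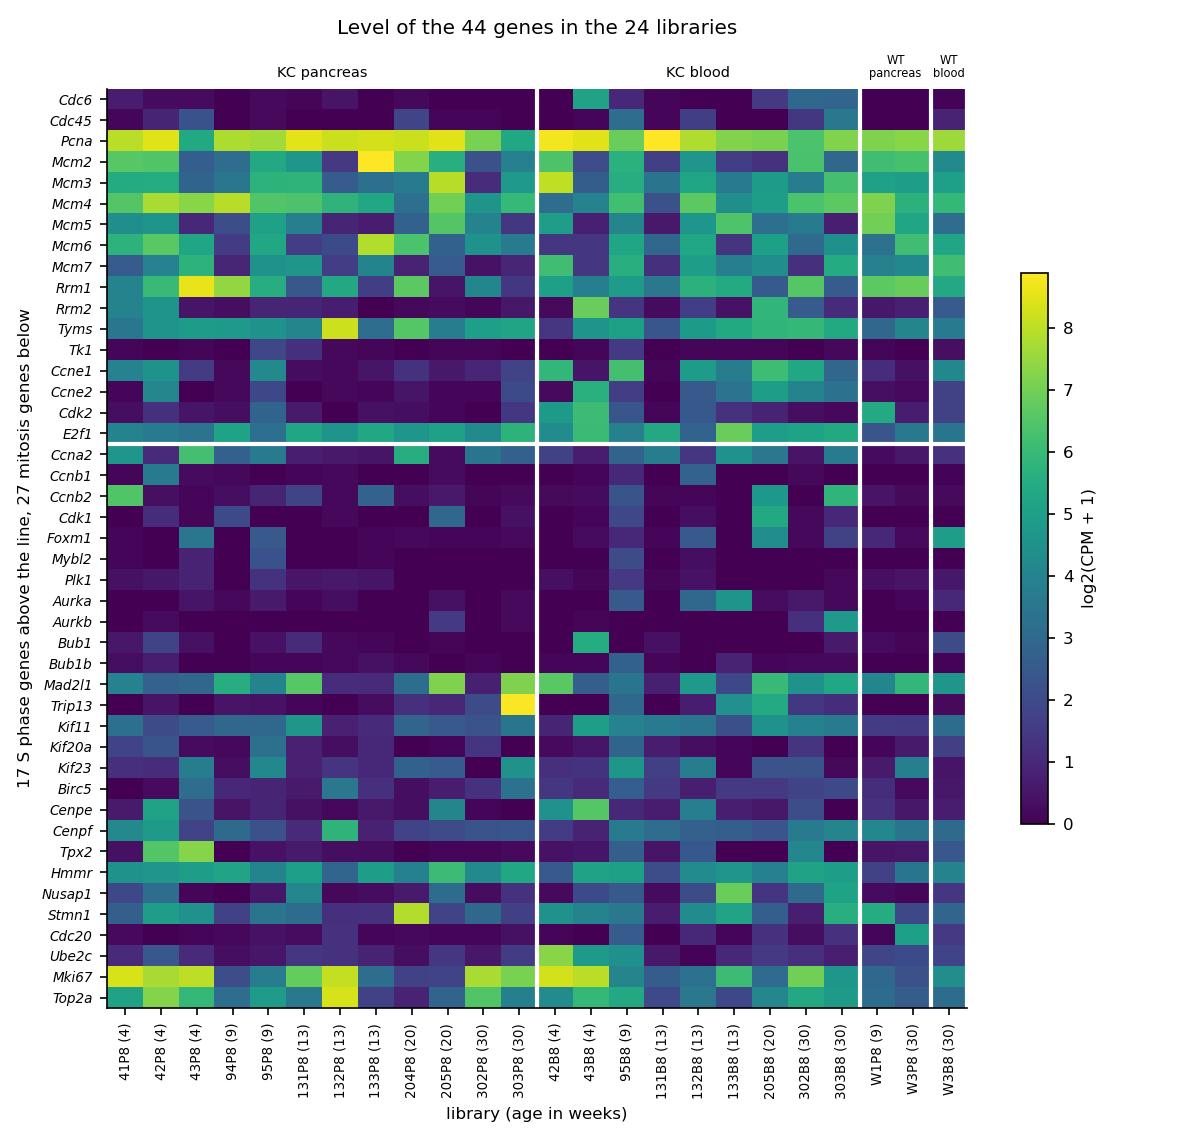
Level of each of the 44 genes (rows, S phase above the white line and mitosis below) in each of the 24 libraries (columns, age in weeks in brackets), as log2(CPM + 1). Pcna formed a row of high values throughout, while most mitosis genes were dark with single bright libraries, such as Trip13 in Sample_303P8.

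The mitosis genes came in bursts, with much of a gene's total in 1 library. Over 50% of all counts lay in a single library for 11 of 27 mitosis genes (40.7%), against 1 of 17 S phase genes (5.88%) and 20.0% of the 9840 genes with 100 to 20000 counts in all. Aurkb, which encodes the kinase of the chromosomal passenger complex, had 85.6% of its counts in Sample_303B8, at 26.4 CPM, and at most 1.85 CPM in any other library. Bub1, a checkpoint kinase, had 79.2% in Sample_43B8, at 44.2 CPM, and at most 3.05 elsewhere. For Cdk1, the mitotic kinase, 70.3% were in Sample_205B8, at 41.7 CPM. Cdc20, which activates the anaphase promoting complex, had 71.6% in the WT pancreas library of 30 weeks, at 31.2 CPM. The libraries that held these bursts differed from gene to gene. Cdc6, which loads the helicase, was the S phase gene concerned, with 69.1% of its counts in Sample_43B8.

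**Figure D2:**
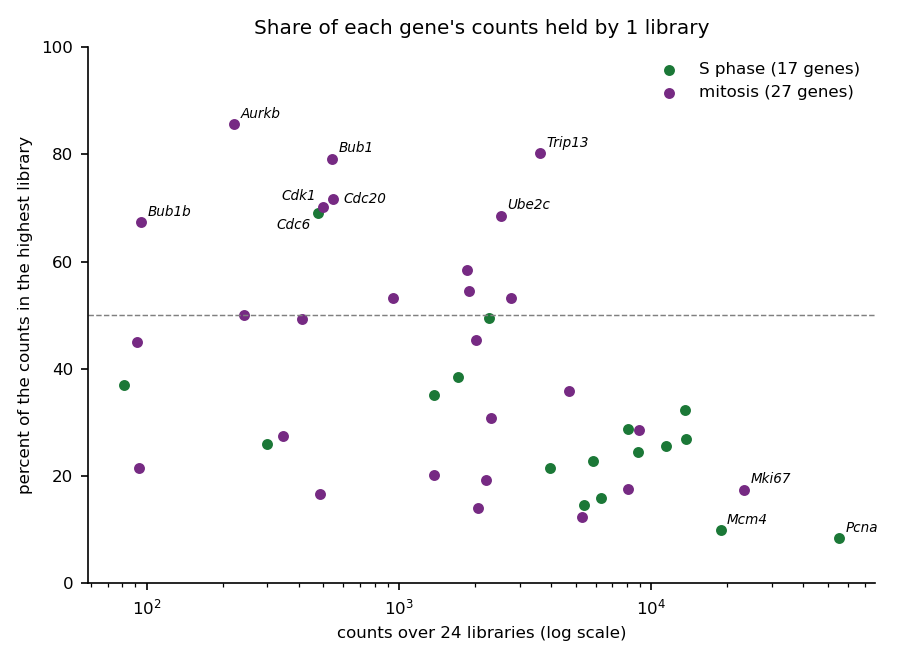
Percent of a gene's counts over the 24 libraries that came from its highest library (vertical axis) against its total counts (horizontal log axis), 1 point per gene, green for S phase and purple for mitosis. Genes above the dashed line at 50% are 11 mitosis genes and Cdc6, and Pcna lies at the lower right with 8.45%.

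Summed over the 17 S phase genes, the level was 702 ± 262 CPM in KC pancreas (SD, n = 12) and 620 ± 172 CPM in KC blood (SD, n = 9). The WT pancreas libraries had 700 and 583 CPM and the WT blood library 511 CPM. Summed over the 27 mitosis genes it was 412 ± 254 CPM in KC pancreas (SD, n = 12), 324 ± 185 CPM in KC blood (SD, n = 9), 105 and 143 CPM in WT pancreas and 139 CPM in WT blood. The ranges were 253 to 1145 CPM for S phase and 58.4 to 850 CPM for mitosis in KC pancreas, and 510 to 1027 CPM and 52.4 to 643 CPM in KC blood. The WT values lay inside the KC ranges for both sums. In a bulk library a lower level can be fewer dividing cells or less of the RNA per cell, and these cannot be told apart. A sum was mostly 1 or a few genes. Pcna led the S phase sum in 18 of 24 libraries, whereas 10 different genes led the mitosis sum, Mki67 in 8 libraries and Mad2l1 in 5. The 2 sums could part: Sample_133P8 had the highest S phase sum (1145 CPM, with 478 from Mcm2) and the lowest mitosis sum of KC pancreas (58.4 CPM), and Sample_303P8 had the lowest S phase sum (253 CPM) and the highest mitosis sum (850 CPM, of which Trip13 gave 53.8%).

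At 4 weeks the mitosis sum was narrow and high. It was 557, 614 and 654 CPM in KC pancreas and 643 and 574 CPM in KC blood. In the later KC pancreas libraries it ran from 58.4 to 850 CPM with a median of 307, which overlapped. In the later blood libraries it ran from 52.4 to 337 CPM with a median of 285, which did not. The S phase sum of blood was likewise 1027 and 760 CPM at 4 weeks against 510 to 610 CPM later. Single genes weighed on both sums. Without Pcna the S phase sum of blood was 600 and 398 CPM at 4 weeks and 80.1 to 451 CPM later, which overlapped. Without Mki67 the mitosis sum at 4 weeks was 225 to 404 CPM in KC pancreas and 333 and 320 CPM in KC blood. The later values without it were 50.2 to 711 CPM in pancreas and 47.2 to 312 CPM in blood. All but 1 of the later blood libraries are of set 2 and both 4-week ones of set 1; the exception, Sample_131B8, had 52.4 CPM for mitosis and 556 CPM for S phase. This contrast of ages was picked out after the values had been seen.

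**Figure D3:**
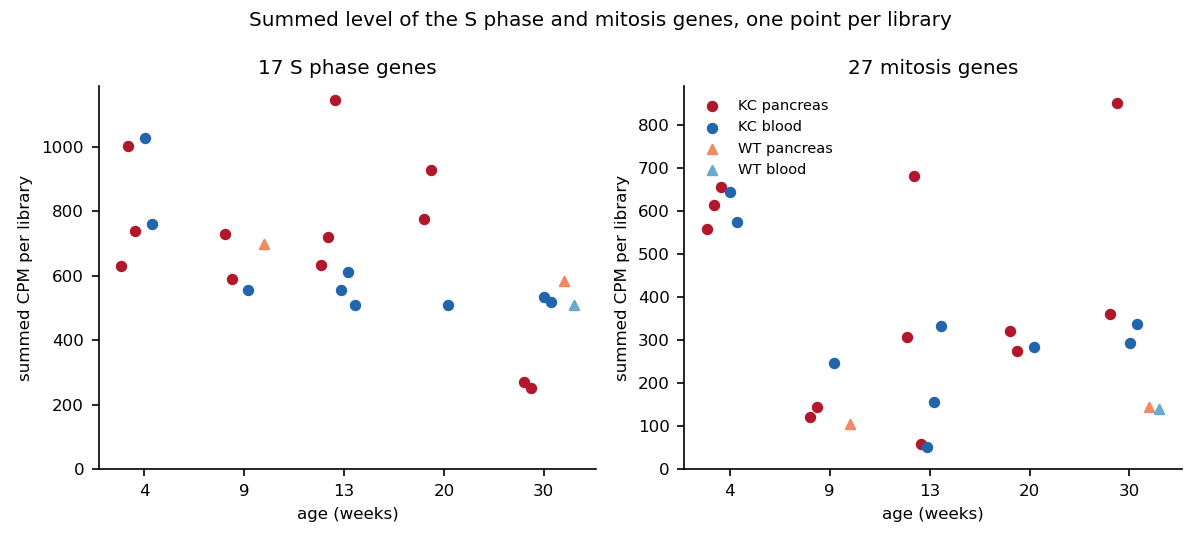
Summed CPM of the 17 S phase genes (left) and the 27 mitosis genes (right) against age in weeks, 1 point per library, circles for KC and triangles for WT, red shades for pancreas and blue for blood. The 5 mitosis values at 4 weeks lie between 557 and 654, while the later KC values spread from 52.4 to 850.

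Among the replication factors, Pcna was 38.7 to 371 CPM in KC pancreas (median 270) and 82.7 to 476 CPM in KC blood (median 148), and 146, 157 and 195 CPM in the WT pancreas and blood libraries. Cdc6 was 0 to 0.652 CPM in KC pancreas (median 0.123), 0 to 33.9 CPM in KC blood (median 0.986) and at most 0.0598 in WT. The Pcna ranges overlapped almost wholly, and Cdc6 passed 1 CPM in blood libraries and in no pancreas library. Of the MCM helicase subunits, Mcm4 was 8.58 to 245 CPM in KC pancreas (median 86.6) and 3.66 to 101 CPM in KC blood (median 30.7). It was 145 and 52.1 CPM in WT pancreas and 59.9 CPM in WT blood. Mcm2 was 1.81 to 478 CPM in KC pancreas (median 32.7), 1.42 to 83.8 CPM in KC blood (median 6.68), 70.5 and 78.7 CPM in WT pancreas and 18.1 CPM in WT blood. The 6 subunits form 1 ring, yet their highest libraries differed: Mcm2 and Mcm6 peaked in Sample_133P8 (478 and 235 CPM), Mcm3 and Mcm7 in Sample_42B8 (266 and 71.4 CPM), Mcm4 in Sample_94P8 and Mcm5 in the 9-week WT pancreas library (127 CPM).

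For nucleotide supply, Rrm1, the large subunit of ribonucleotide reductase, was 0.412 to 389 CPM in KC pancreas (median 28.3) and 4.74 to 93.9 CPM in KC blood (median 28.7). Rrm2, the small subunit that limits the enzyme outside S phase, had medians of 0.447 and 1.52 CPM and reached 10 CPM in 4 of 24 libraries. Tyms, thymidylate synthase, was 8.14 to 299 CPM in KC pancreas (median 25.3) and 1.64 to 59.6 CPM in KC blood (median 32.4). The medians of Rrm1 and Tyms were alike in both tissues, and single libraries set the top values, Sample_43P8 for Rrm1 and Sample_132P8 for Tyms. Of the genes at the entry to S phase, E2f1 was 8.6 to 52.6 CPM in KC pancreas (median 24), 6.21 to 117 CPM in KC blood (median 34.8) and 4.08 to 11.1 CPM in the 3 WT libraries. Ccne1, cyclin E1, was 0.129 to 22.1 CPM in KC pancreas (median 1.22) and 0.102 to 76.7 CPM in KC blood (median 28.4), and 1.23 and 0.319 CPM in WT pancreas and 17 CPM in WT blood. Ccne1 thus passed 10 CPM in 3 of 12 KC pancreas libraries and in 6 of 9 KC blood libraries, with overlap.

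Of the mitotic cyclins, Ccna2, cyclin A2, was 0.206 to 75.3 CPM in KC pancreas (median 5.66), 0.397 to 22.0 CPM in KC blood (median 6.10) and 0.190 to 1.44 CPM in WT. Ccnb2, cyclin B2, had medians of 0.283 and 0.182 CPM in the KC tissues with peaks of 88.7 CPM in Sample_41P8 and 55.1 CPM in Sample_303B8. It was thus a gene of few libraries, and only Sample_205B8 (25.6 CPM) also passed 10 CPM. Mad2l1, the spindle checkpoint protein MAD2, was 0.707 to 146 CPM in KC pancreas (median 11.3) and 0.712 to 98.4 CPM in KC blood (median 23.0), and 15.9, 58.8 and 24 CPM in WT. Trip13, the ATPase that remodels MAD2 and so disarms the checkpoint, was 0 to 457 CPM in KC pancreas (median 0.379) and 0 to 42.6 CPM in KC blood (median 1.25). It had no count in either WT pancreas library, and 3 counts over both are a level of 0.130 CPM. The Trip13 gene lies at chr13:73911347-73937784 on the minus strand.

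Among spindle genes, Hmmr, a microtubule binding protein that T cells make on activation, was 6.46 to 67.1 CPM in KC pancreas (median 27.1), 3.26 to 34.4 CPM in KC blood (median 24.2) and 2.28 to 14.8 CPM in WT. Stmn1, which destabilises microtubules, was 1.29 to 231 CPM in KC pancreas (median 6.15), 0.61 to 48.4 CPM in KC blood (median 14.7) and 2.79 to 44.9 CPM in WT. Hmmr was the steadier of the pair, with 12.3% of its counts in its highest library against 35.9% for Stmn1. For the anaphase promoting complex, Ube2c, its ubiquitin-conjugating enzyme, was 0.263 to 4.32 CPM in KC pancreas (median 1.15) and 0.0609 to 158 CPM in KC blood (median 1.32), and 2.45 to 2.95 CPM in WT. Cdc20 was at most 1.42 CPM in KC pancreas and 4.84 CPM in KC blood. The high Ube2c values were all in blood, in Sample_42B8 (158 CPM), Sample_43B8 (27.9) and Sample_95B8 (20.9).

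Of the chromosome genes, Mki67, whose protein coats mitotic chromosomes and is the usual stain for dividing cells, was 2.32 to 331 CPM in KC pancreas (median 124), 5.19 to 309 CPM in KC blood (median 25.3), 6.93 and 3.67 CPM in WT pancreas and 19.9 CPM in WT blood. Top2a, topoisomerase II alpha, was 0.817 to 329 CPM in KC pancreas (median 21.1), 2.78 to 60.5 CPM in KC blood (median 18.7) and 5.19 to 7.88 CPM in WT. At 4 weeks Mki67 was 331, 210 and 258 CPM in pancreas and 309 and 254 CPM in blood. Later pancreas libraries were either above 100 CPM (Sample_132P8 270, Sample_302P8 220, Sample_303P8 139, Sample_131P8 109) or at most 12.4 CPM, and later blood libraries ran from 5.19 to 127 CPM. Mki67 and Top2a were the only mitosis genes at 10 CPM or more in all 5 libraries of 4 weeks, and 11 of the 27 reached it in none of the 5. High Mki67 at 4 weeks was thus not matched by the whole mitotic list.

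The remaining genes fell into those found at a low level almost everywhere and those seen in few libraries. Kif11, the motor that pushes the spindle poles apart, and Cenpf, a kinetochore protein, each reached 1 CPM in 22 of 24 libraries, with medians of 6.76 and 5.52 CPM and top values of 29.7 and 54.9 CPM. Birc5, which encodes survivin of the passenger complex, reached 1 CPM in 15 libraries and never passed 10.5 CPM. Nusap1, which bundles spindle microtubules, had a median of 1.48 CPM and 120 CPM in Sample_133B8, with 54.6% of its counts there. Kif23, a motor of the midbody, was at 24.9 CPM in Sample_95B8 and 23.0 CPM in Sample_303P8 and reached 1 CPM in 16 libraries. Of the genes of mitotic kinases and checkpoint proteins, Plk1 peaked at 1.79 CPM and Bub1b at 5.74 CPM, while Aurka had a median of 0.135 CPM and reached 23.5 CPM in Sample_133B8. Tk1, the thymidine kinase of the salvage pathway, peaked at 2.75 CPM. For Plk1, Bub1b, Kif20a, Cdc20, Birc5, Tk1 and Mybl2 the highest KC blood value came from the same library, Sample_95B8, the sole blood library of 9 weeks.

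**Figure D4:**
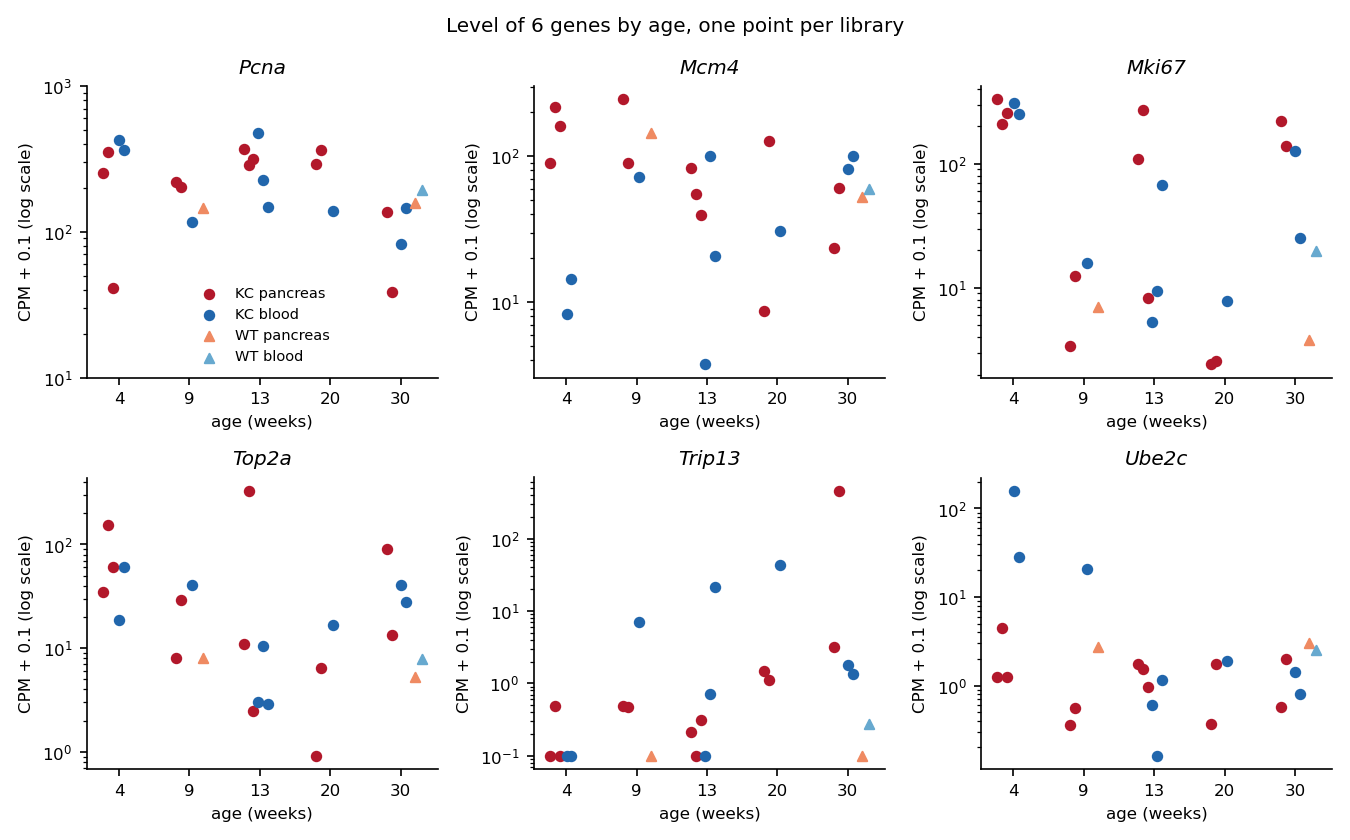
Level of 6 genes against age, 1 point per library, as CPM + 0.1 on a log axis that differs between panels; circles are KC, triangles WT, red shades pancreas and blue shades blood. Mki67 is at 210 or more in all 5 libraries of 4 weeks, the high Ube2c points are blood libraries of 4 and 9 weeks, and Trip13 stands at 457 in a single pancreas library of 30 weeks.

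The first comparison set KC pancreas against KC blood with age as a factor, to ask whether CD8 T cells in the diseased organ differ in cycling genes from those in the circulation. None of the 40 genes tested was called by edgeR's quasi-likelihood test at an adjusted p under 0.05, where 0.0904% of all genes tested were called (10 of 11059). In all, 5 S phase genes had an unadjusted p under 0.05 and no mitosis gene did; over all genes 1089 did. Both E-type cyclins and Cdc6 had lower values in pancreas. For Ccne1 the log2 fold change was -3.70 ± 1.05 (SE; edgeR adjusted p = 0.148), for Ccne2 -3.53 ± 1.29 (edgeR adjusted p = 0.307) and for Cdc6 -3.92 ± 1.61 (edgeR adjusted p = 0.388). The helicase subunits Mcm4 and Mcm6 had higher values in pancreas, the first by 1.58 ± 0.75 (edgeR adjusted p = 0.480) and the other by 2.06 ± 1.0 (edgeR adjusted p = 0.491). The per-library values overlapped for all 5: Ccne2 was 0 to 16.4 CPM in pancreas (median 0.124) and 0 to 49.6 CPM in blood (median 9.18), and Mcm6 was 1.97 to 235 CPM (median 30.0) and 1.62 to 38.9 CPM (median 7.15). DESeq2 called Ccne1, Ccne2 and Cdc6 lower (DESeq2 adjusted p = 0.000601, 0.0242 and 0.0267) and Mcm4 higher (DESeq2 adjusted p = 0.0269), with 480 genes called in all. As edgeR called 10 genes in the same comparison, calls by DESeq2, here and below, are not a result about the 44 genes as a set. With the set as a term, Ccne1 was -2.93 ± 1.14 (edgeR adjusted p = 0.457); within set 1 it was -1.32 ± 1.78 and within set 2 -3.91 ± 1.31. With that term Ccne2 had -2.60 ± 1.40, Cdc6 -4.99 ± 1.55, Mcm4 1.95 ± 0.89 and Mcm6 1.72 ± 1.11, and none of the 44 genes was called. The Mcm4 value was 3.40 ± 1.48 within set 1 and 0.70 ± 0.95 within set 2.

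By class, 7 of 17 S phase genes had a positive fold change (pancreas above blood), with a median of -0.46. Of the mitosis genes tested 9 of 23 did, with a median of -0.82, and over all genes 45.4% did, with a median of -0.12. The S phase median was 0.29 without Sample_42B8, and the mitosis median was 0.63 without the age term and 0.36 within set 1, so neither sign held throughout. The mitosis genes Ccnb1, Mybl2, Plk1 and Bub1b were too low to be tested. Where a pancreas and a blood library carried the same number in the title (9 pairs), the S phase sum was higher in pancreas in 5 and the mitosis sum in 5. Ccne1 and Ccne2 were each higher in pancreas in 2 of 9.

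**Figure D5:**
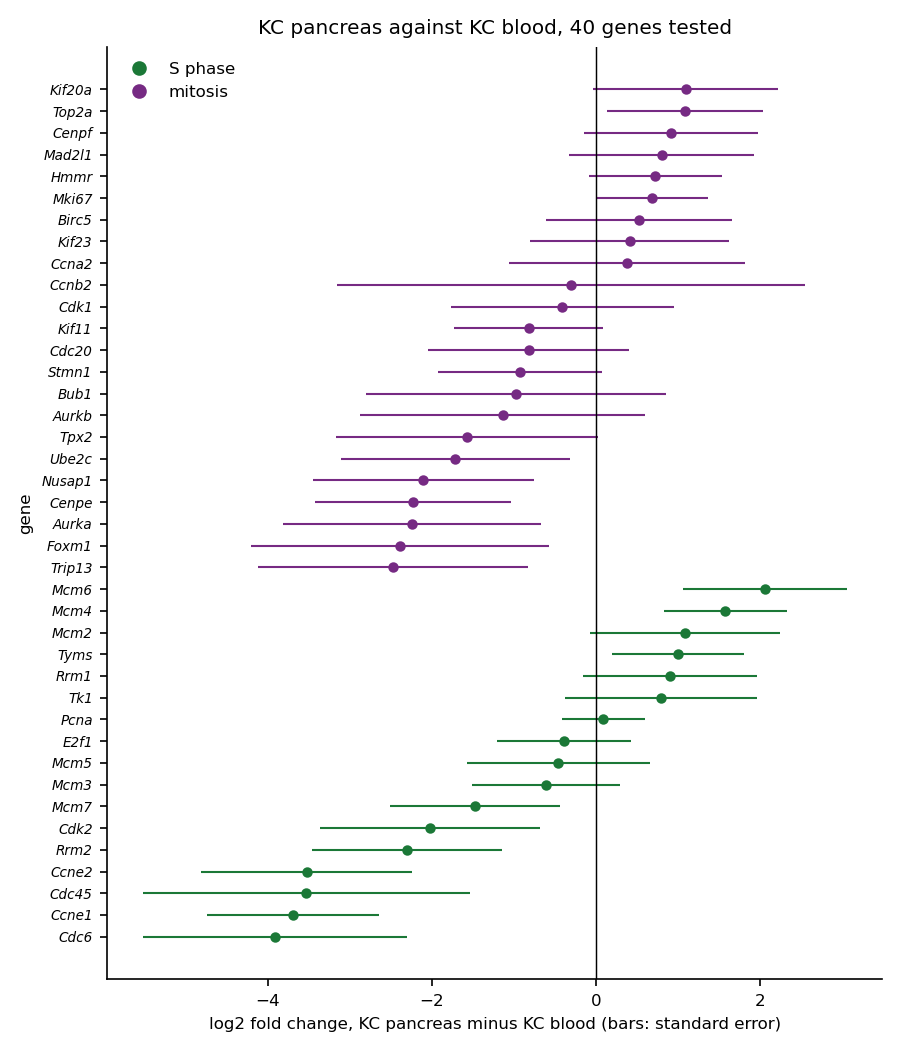
Log2 fold change of KC pancreas minus KC blood from edgeR, with age as a factor, for the 40 genes tested; points are estimates, bars are standard errors, green is S phase and purple is mitosis. Most bars cross or come near 0, and of the 5 S phase genes with an unadjusted p under 0.05, Cdc6, Ccne1 and Ccne2 lie to the left of 0 and Mcm4 and Mcm6 to the right.

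The second question was whether the level changed with age, over which disease advances in KC mice. In pancreas, 1 of the 30 genes tested was called by edgeR, against 0.293% of all genes tested (28 of 9555). That gene was Trip13, which rose by 4.19 ± 0.68 on the log2 scale per 10 weeks (SE; edgeR adjusted p = 0.0110). Its values were 0, 0.392 and 0 CPM at 4 weeks, 0.394 and 0.366 at 9 weeks, 0.111, 0 and 0.217 at 13 weeks, 1.36 and 1.03 at 20 weeks, and 3.06 and 457 at 30 weeks. Sample_303P8 (457 CPM) stood far above the next pancreas library (3.06 CPM). Without it the slope was 1.87 (edgeR adjusted p = 0.372), and without Sample_204P8 the gene fell below the count filter and was not tested. With the set as a term the slope was 4.03 ± 1.18 (edgeR adjusted p = 0.420), and within set 2 it was 4.52 ± 0.99 (edgeR adjusted p = 0.433). The median trace of 0.205% would put 0.938 CPM of Trip13 in the other set 2 libraries, which had 0.366 to 42.6 CPM (median 1.36), while set 1 had 0 to 0.392 CPM. Its part in the slope was not tested.

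Ccnb2 and Mcm7 also had an unadjusted p under 0.05 in the pancreas trend. Ccnb2 had a slope of -2.85 ± 0.96 per 10 weeks (edgeR adjusted p = 0.290) and Mcm7 one of -1.99 ± 0.91 (edgeR adjusted p = 0.499). The Ccnb2 values were 88.7, 0.294 and 0.105 CPM at 4 weeks and at most 5.97 CPM later, so 1 library of 4 weeks stood above all others. Mcm7 was 4.89, 14.3 and 53.0 CPM at 4 weeks, 0.920 and 22.7 at 9 weeks, 25.4, 2.07 and 15.3 at 13 weeks, 0.817 and 5.05 at 20 weeks, and 0.353 and 0.945 at 30 weeks. Both 30-week values were under 1 CPM, as were 1 of 2 at 9 weeks and 1 of 2 at 20 weeks. DESeq2 called both, with Trip13. With the set as a term the slope was -1.26 ± 1.17 for Ccnb2 and -1.33 ± 0.96 for Mcm7. Positive slopes were found in 4 of 13 S phase genes (median -0.54) and 8 of 17 mitosis genes (median -0.22), and in 47.5% of all genes (median -0.04). The mitosis median was positive with the set as a term (0.24) and within each set alone, 0.65 and 0.52. It was also positive without Sample_42P8, Sample_43P8 or Sample_131P8 (0.01, 0.16 and 0.02). The S phase median was 0.22 in set 1 alone.

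In blood, none of the 35 genes tested was called by edgeR, and 0% of all genes tested were (0 of 9933, with 870 at an unadjusted p under 0.05). DESeq2 called 3, Cdk2, Ube2c and Cenpe, with the limit given for its calls in the tissue comparison. By edgeR 5 genes had an unadjusted p under 0.05. Cdk2, the kinase partner of cyclin E, had a slope of -3.30 ± 0.77 per 10 weeks (edgeR adjusted p = 0.172), and Ube2c one of -2.82 ± 0.74 (edgeR adjusted p = 0.240). Cenpe, a kinetochore motor, had -2.22 ± 0.75 (edgeR adjusted p = 0.419), Pcna -1.08 ± 0.48 (edgeR adjusted p = 0.531) and Ccnb2 2.53 ± 1.01 (edgeR adjusted p = 0.507). All slopes but that of Ccnb2 were negative, and the 4-week libraries held the highest Cdk2 and Cenpe values: 28.1 and 68.0 CPM of Cdk2 against at most 4.51 later, and 21.5 and 94.1 CPM of Cenpe against at most 13.2. For Pcna, 427 and 362 CPM at 4 weeks overlapped 82.7 to 476 CPM later. Slopes were positive in 4 of 16 S phase genes (median -0.42) and 7 of 19 mitosis genes (median -0.12), against 43.9% of all genes (median -0.12). With the set as a term the medians were 0.03 and 0.08, and without Sample_42B8 the S phase median was 0.13. With that term the slope was -2.49 ± 1.0 for Cdk2, -1.75 ± 0.89 for Ube2c, -1.11 ± 1.05 for Cenpe, -0.06 ± 0.41 for Pcna and 1.86 ± 1.33 for Ccnb2.

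The slopes of the tissues were compared directly by an interaction term. None of 40 genes was called by edgeR, against 0.0543% of all genes tested (6 of 11059, with 921 at an unadjusted p under 0.05). DESeq2 called 3, Ccnb2, Tpx2 and Cdk2, with the same limit on its calls. By edgeR 5 genes had an unadjusted p under 0.05, all given here as the pancreas slope minus the blood slope. Ccnb2 differed by -5.39 ± 1.47 (edgeR adjusted p = 0.170), Tpx2, a spindle assembly factor, by -4.72 ± 1.25 (edgeR adjusted p = 0.150) and Foxm1, the mitotic transcription factor, by -4.27 ± 1.97 (edgeR adjusted p = 0.543). Cdk2 differed by 3.04 ± 1.03 (edgeR adjusted p = 0.307) and Ube2c by 2.63 ± 0.93 (edgeR adjusted p = 0.347). Tpx2 was 0.326, 91.1 and 156 CPM in pancreas at 4 weeks and at most 0.553 CPM there later, whereas in blood its top value of 16.4 CPM came at 30 weeks. Foxm1 was 10.3 CPM in Sample_43P8 and 19.6 CPM in Sample_205B8 and at most 4.67 CPM in the other KC libraries. In both genes a few libraries carried the values. The differences with the set as a term were -5.23 ± 1.61 for Ccnb2, -4.70 ± 1.58 for Tpx2, -4.12 ± 1.72 for Foxm1, 3.16 ± 1.04 for Cdk2 and 2.77 ± 0.93 for Ube2c, again with none called. Within set 2, which holds no 4-week library, Tpx2 had -0.58 ± 1.71.

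The third comparison set KC against WT pancreas. None of 37 genes was called by edgeR, against 0.194% of all genes tested (21 of 10829, with 545 at an unadjusted p under 0.05). The WT libraries are of set 1 and the KC libraries of the same ages of set 2, so at matched ages genotype and set cannot be told apart. Trip13 alone had an unadjusted p under 0.05 (edgeR adjusted p = 0.547), and DESeq2 called it. It had no counts in either WT library, and the KC mean of 38.7 CPM was at least 297-fold above 3 counts over both. Without Sample_303P8 the mean was 0.631 CPM, at least 4.85-fold above. That mean came mostly from set 2, whose other KC pancreas libraries had 0.366 to 3.06 CPM, where the median trace of Sample_303P8 would be 0.938 CPM. KC pancreas libraries of set 1, the set of the WT libraries, had 0 to 0.392 CPM. The part of the set and of traces was not tested. Mki67 was 6.93 and 3.67 CPM in WT against 2.32 to 331 CPM in KC, with a log2 fold change of 1.58 ± 1.55 (edgeR adjusted p = 0.961). Of the mitosis genes tested 14 of 21 had positive values (median 1.22, also with those at 0 in WT at their bounds), of the S phase genes 7 of 16 (median -0.39), and of all genes 52.8% (median 0.10). Single libraries moved these: the mitosis median was 0.22 without Sample_303P8, 0.70 without Sample_95P8, and 0.44 and 0.67 without the WT library of 9 and of 30 weeks, and the S phase median was 0.28 without the latter. A fit with the set as a term and age as a number, added after the data had been seen, called none of the 44 genes and none of all genes (901 at an unadjusted p under 0.05). In it Mki67 had 6.38 ± 1.90 (edgeR adjusted p = 0.356), and the medians were 2.41 for mitosis and 1.59 for S phase. Acinar genes were high in WT pancreas (901 and 3378 CPM) and at most 483 CPM in KC pancreas after 4 weeks; their part in these values was not tested.

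After the values had been seen, 4-week libraries were set against all later ages, and these p-values describe a contrast chosen on the same data. In pancreas none of 30 genes was called by edgeR (0% of all genes tested, 0 of 9555, with 904 at an unadjusted p under 0.05) and none by DESeq2. Ccnb2 had -3.83 ± 1.56 (edgeR adjusted p = 0.472) and Trip13 8.60 ± 3.35 (edgeR adjusted p = 0.456), both with an unadjusted p under 0.05. Once the set was a term they had -2.44 ± 1.97 and 0.60 ± 2.32, and 20 of all genes were called, 19 of them higher later, with none of the 44 among them. In blood 2 of 38 genes were called, against 0.815% of all genes tested (89 of 10919, all lower later). Cdk2 was lower later by 5.80 ± 1.30 on the log2 scale (edgeR adjusted p = 0.0375), with 28.1 and 68.0 CPM at 4 weeks and 0.102 to 4.51 CPM later. Ube2c was lower by 5.87 ± 1.34 (edgeR adjusted p = 0.0394), with 158 and 27.9 CPM at 4 weeks and 0.0609 to 20.9 CPM later. The groups did not overlap for either gene. Mki67 had a value of -3.87 ± 0.95 (edgeR adjusted p = 0.0516), with 309 and 254 CPM at 4 weeks and 5.19 to 127 CPM later, also apart. Cenpe had -5.26 ± 1.37 (edgeR adjusted p = 0.0690), Mcm3 -3.17 ± 1.06 (edgeR adjusted p = 0.171) and Cdc6 -3.66 ± 1.75 (edgeR adjusted p = 0.265). Markers of other cells differed between the same libraries. B and plasma cell genes summed to 0.636 and 1.03 CPM at 4 weeks and 4.10 to 73.2 CPM later. Acinar genes summed to 65.5 and 68.8 CPM at 4 weeks and at most 63.1 CPM later, the latter value in Sample_131B8. The WT blood library of 30 weeks, also of set 1, had 67.3 CPM of acinar genes, and blood libraries of set 2 had at most 1.40 CPM. High acinar values in blood were thus those of set 1. The part of these markers in the results was not tested.

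Both blood calls were lost with the set as a term, where Cdk2 had -8.22 ± 3.27 (edgeR adjusted p = 0.238) and Ube2c -7.12 ± 3.17 (edgeR adjusted p = 0.302), and within set 1, which leaves Sample_131B8 as the sole later library. Leaving out 1 library gave 0 to 5 called genes: 0 without Sample_132B8 or Sample_133B8, 1 without Sample_302B8, Sample_42B8 or Sample_95B8, and 5 without Sample_131B8. Aurka and Trip13 had no counts in the 2 blood libraries of 4 weeks and later means of 5.14 and 10.7 CPM, at least 35.5-fold and 73.6-fold above 3 counts over both. Without Sample_133B8 the Aurka bound was 14.4-fold and without Sample_205B8 that of Trip13 was 36.8-fold, and the later medians were 0.53 and 1.72 CPM. Sample_131B8, the sole later KC blood library of set 1, had no counts of either gene. All later counts behind these bounds were thus from set 2, and the part of the set in them was not tested. With no filter on low counts, values were positive, later above 4 weeks, for 5 of 17 S phase genes (median -0.98) and 17 of 27 mitosis genes (median 1.92), against 65.8% of all genes (median 1.27). With the set as a term they were positive for 4 of 17 S phase genes (median -3.46) and 9 of 27 mitosis genes (median -0.43), against 37.8% of all genes (median -0.16). In the filtered fit the S phase median of -1.16 became 0.74 without Sample_42B8 and 0.41 without Sample_43B8. Neither class kept 1 direction, and with 2 libraries against 7 a gene high in a single later library counts as positive. Over both tissues together none of 36 genes was called by edgeR, against 0.134% of all genes tested (14 of 10446, with 1460 at an unadjusted p under 0.05). DESeq2 called 6, with the limit on its calls given in the tissue comparison.

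In that joint contrast 8 genes had an unadjusted p under 0.05. Tpx2 had the lowest adjusted p, with -7.18 ± 1.81 (edgeR adjusted p = 0.0919), and -6.88 ± 2.28 with the set as a term. In blood alone it had the opposite sign, 2.18 ± 2.42. In pancreas alone it was below the count filter, with 0.326, 91.1 and 156 CPM at 4 weeks and at most 0.553 CPM later. Rrm2 had -4.01 ± 1.11 (edgeR adjusted p = 0.126), Cenpe -3.89 ± 1.24 (edgeR adjusted p = 0.170) and Ube2c -4.04 ± 1.30 (edgeR adjusted p = 0.173). Mki67 had -2.56 ± 0.88, Cdk2 -3.85 ± 1.55 and Ccne2 -2.43 ± 1.17, with edgeR adjusted p of 0.194, 0.254 and 0.346. The tissues differed for Cdk2 too, with 0.47 ± 1.54 in pancreas alone and -5.80 ± 1.30 in blood alone. Cenpe, Ube2c, Mki67 and Ccne2 were negative in each tissue alone, and Rrm2 was negative in blood and not tested in pancreas. In the joint fit Trip13 alone of the 8 was positive, with 8.82 ± 2.51 (edgeR adjusted p = 0.138), and it had 0.58 ± 1.85 with the set as a term. With that term none of the 44 genes was called, and the other 6 kept their negative sign, from -1.27 for Mki67 to -5.54 for Ccne2.

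Other genes of the same pathways were counted from 3 lists: 51 replication genes, 57 mitosis genes (56 in the tables) and 32 genes of G1 control and cell cycle brakes. None was called by edgeR in the tissue comparison (49, 37 and 26 tested), in either age trend, in the difference of the trends or in KC against WT. At an unadjusted p under 0.05, 6 of the 37 mitosis genes tested were lower and 1 higher in pancreas than in blood (1089 of 11059 over all genes, either way), and in the pancreas age trend 4 of 29 had negative slopes and none a positive one (855 of 9555 over all genes). In the contrast of 4 weeks with later ages in blood (45, 36 and 26 tested), 3 were called, all lower later, against the 0.815% of all genes given above, which were also all lower. They were Ckap2l, a spindle protein, by -6.83 ± 1.26 (edgeR adjusted p = 0.0137), Hmgb2, a chromatin protein of dividing cells, by -3.14 ± 0.73 (edgeR adjusted p = 0.0422), and Chaf1a, which places histones on new DNA, by -9.11 ± 1.95 (edgeR adjusted p = 0.0461). In both tissues together Ckap2l had -6.97 ± 0.98 (edgeR adjusted p = 0.000198) and Chaf1a -7.25 ± 1.44 (edgeR adjusted p = 0.0243). None of these calls held with the set as a term: in blood the adjusted p by edgeR was 0.286 for Ckap2l, 0.388 for Hmgb2 and 0.366 for Chaf1a, and in both tissues 0.0936 for Ckap2l and 0.165 for Chaf1a. That fit called in blood the replication genes Cdc7 and Pola2, higher later (edgeR adjusted p = 0.0346 and 0.00421). Of the G1 and brake genes none was called in any of these comparisons.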

How the data were processed

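The values used are read counts per gene in 24 libraries, deposited by the authors as 1 table per library, with whole numbers for 24421 genes and 5 tally rows that were left out. The submitters' processing notes name TopHat, SAMtools, HTSeq and DESeq and the build mm10; versions, strand setting and filters are not given in the sources used here. CPM divides a count by the library's total in genes. Differences were tested on the deposited counts in edgeR (version 4.0.16, under R 4.3.3) by its quasi-likelihood test, two-sided and with robust dispersions, after TMM scaling and the filterByExpr filter at 10 counts; a gene was called at a Benjamini-Hochberg adjusted p under 0.05 over all genes tested. The age trend is log2 per 10 weeks. Alternatives were RLE, DESeq2 1.42.0, no filter, a set term or 1 set alone, other age terms, and each library left out. The scripts were checked on data with known changes.

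Groups came from the labels. The 44 genes, the pathway and marker lists and the tests were chosen with earlier results of these data known. Values are given for every one of the 44 genes with an unadjusted p under 0.05, and per group for the 2 with most counts in each functional role; others are summarised. Pathway genes are named only where called. Gene positions are from GENCODE M21 (GRCm38), which matched all 44, and promoters from RefSeq. No 2 libraries held identical counts. A floor of 3 counts stands for a group at 0 and covers counting error only.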

Additional observations from a re-analysis of the deposited data

Results flagged for a closer look

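Only KC blood, with 9 libraries, had a group size at which 1 library's distance from the others was examined (the gap to the nearest library over the range, above 0.493). Of 46 measures, the 44 genes and both sums, 26 had a library that stood apart, each time as the highest. This cut-off flags about 1 in 20 groups only where values follow a normal distribution. CPM values are skewed, many of them low, and the share over all genes was not worked out. No excess is therefore shown for these genes, and the genes and sums share libraries. Sample_42B8 stood apart for the S phase sum at 1027 CPM (next 760), Mcm3 at 266 CPM (next 76.2) and Ube2c at 158 CPM (next 27.9). Sample_43B8 stood apart for Cdc6 at 33.9 CPM (next 7.02), Rrm2 at 115 CPM (next 57.3), Cdk2 at 68 CPM (next 28.1), Bub1 at 44.2 CPM (next 0.557) and Cenpe at 94.1 CPM (next 21.5). Sample_133B8 stood apart for Mcm5 at 86.9 CPM (next 30.2), Aurka at 23.5 CPM (next 7.0) and Nusap1 at 120 CPM (next 35.2). Sample_95B8 stood apart for Tk1 at 1.88 CPM (next 0.139), Mybl2 at 3.23 CPM (next 0.244), Plk1 at 1.79 CPM (next 0.365), Bub1b at 5.74 CPM (next 0.811), Kif20a at 6.27 CPM (next 1.59), Kif23 at 24.9 CPM (next 12.5), Birc5 at 5.29 CPM (next 2.92) and Cdc20 at 4.84 CPM (next 1.42). Sample_132B8 stood apart for Ccnb1 at 6.03 CPM (next 0.986). Sample_303B8 stood apart for Ccnb2 at 55.1 CPM (next 25.6) and Aurkb at 26.4 CPM (next 1.32). Sample_205B8 stood apart for Cdk1 at 41.7 CPM (next 2.78), Foxm1 at 19.6 CPM (next 4.63) and Trip13 at 42.6 CPM (next 21.4). Sample_302B8 stood apart for Tpx2 at 16.4 CPM (next 5.47). The largest number of genes, 8, fell to Sample_95B8, the blood library of 9 weeks, and all but Kif23 were below 6.5 CPM there. For Tk1, Mybl2, Plk1 and Kif20a the same-numbered pancreas library was high as well. Sample_95P8 had 2.75, 3.75, 1.46 and 8.69 CPM, and the pair held the top values of all 24 libraries. This was not so for Bub1b, Kif23, Birc5 and Cdc20. Sample_95B8 also had the most genes with a count, 12949, against a median of 10758.5 over all libraries. Sample_95P8 had the most of the pancreas libraries, 12313.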

How the results depend on the processing

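Counts of called genes among the 44 under other settings were as follows, each against the count by edgeR. Calls over all genes change with the setting too: in the tissue comparison DESeq2 called 480 of 11059 genes, against 10 by edgeR. The counts below are therefore not a result about the 44 genes as a set. For KC pancreas against KC blood (0), DESeq2 gave 4 and a fit without the age term 1 (Ube2c); with the title number as a replicate block it was 0, and every library left out gave 0. Same-numbered pancreas and blood libraries did not deviate together (correlations of -0.0553 to 0.00863 over the 7 pairs that could be checked; 2 of 7 matched best with their own number, and those 2 values are equal because each tissue has 2 libraries of that age); the labels do not say whether a shared number marks a shared mouse, and this check does not settle it. For the pancreas age trend (1), DESeq2 gave 3, no filter 2, age as a factor 3, log2 of age 0, the set as a term 0, set 1 alone 0, set 2 alone 0, and libraries left out 0 to 1. For the blood trend (0), DESeq2 gave 3, no filter 2 and log2 of age 2; libraries left out gave 0 to 0. For the difference of trends (0), DESeq2 gave 3. For KC against WT pancreas (0), DESeq2 gave 1 and the 9 and 30 week libraries alone 1 (Trip13 in both); a set term could not be fitted beside age as a factor, and with age as a number it gave 0. For 4 weeks against later ages, pancreas (0) gave 1 without the filter and 0 to 1 with a library left out; blood (2) gave 8 by DESeq2, 5 without the filter, 0 with the set as a term, 0 in set 1 alone and 0 to 5 with a library left out; both tissues (0) gave 6 by DESeq2, 2 without the filter and 0 to 1 with a library left out. Set 2 alone holds no 4-week library. Signs turned in 4 cases: the Pcna blood slope was 0.86 in set 1 alone, and with a library left out, later minus 4 weeks ran from -4.43 to 3.15 for Ccnb2 in pancreas, from -4.65 to 7.33 for Cdc6 in blood and from -4.14 to 1.94 for Mcm3 in blood, positive without Sample_41P8, Sample_43B8 and Sample_42B8. The cause was not tested, except that a left-out library or set leaves fewer samples. The median fold changes of the classes moved by less than the spread between libraries in 288 of 330 alternatives and changed sign in 33. That spread was 0.61 for S phase and 0.47 for mitosis on the log2 scale, for fold changes and slopes alike. It was larger than several of the medians, so a median could change sign within it, and the 288 do not show that the medians were stable. RLE moved the median of all genes from -0.12 to -0.24 in the blood trend, from 0.07 to 0.17 in the difference of trends, from 0.36 to 0.60 for later ages in pancreas and from 0.83 to 0.59 in blood. The summed CPM stayed within 1 SD under each alternative: 661 to 742 (S phase) and 372 to 444 (mitosis) in KC pancreas, and 569 to 634 and 284 to 358 in KC blood, with a library left out. At these depths a gene under 1 CPM rests on fewer than 17 counts in a library, and 14 mitosis genes reached 1 CPM in at most 8 libraries.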
